A study of Mus musculus with 13 samples.

Results

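The 10 genes of acentriolar spindle assembly *Tpx2*, *Aurka*, *Tacc3*, *Ckap5*, *Kif11*, *Numa1*, *Pcnt*, *Cep192*, *Haus6* and *Haus8* were followed through ribosome profiling (Ribo-seq) and acetylated RNA immunoprecipitation (acRIP-seq) of mouse oocytes. They were chosen by name, and all 10 were found among the 22442 genes of the Ribo-seq tables by their Ensembl identifiers. Ribo-seq counts the ribosome-protected fragments (RPFs) on the coding sequence (CDS) of each gene, so its counts rise with the amount of an mRNA and with the ribosomes on it. The 11 Ribo-seq libraries were 3 of germinal vesicle (GV) oocytes and 2 of metaphase II (MII) oocytes from WT females, and 3 of each stage from Nat10-ZcKO females. acRIP-seq added 1 anti-ac4C and 1 anti-IgG library of fragmented RNA from WT GV oocytes. All mice, those of the Ribo-seq libraries included, were on the C57BL/6J background according to the methods of the study.

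In the Nat10-ZcKO females floxed *Nat10* alleles were combined with Zp3-Cre, a transgene active in growing oocytes and not in the somatic cells of the follicle, so the deletion precedes the fully grown GV stage. *Nat10* encodes the acetyltransferase that writes N4-acetylcytidine (ac4C) on RNA. The females were 21 days old, primed with gonadotropin for GV oocytes and superovulated for MII oocytes according to the methods of the study, and the series' design text also names tamoxifen given for 3 days to the WT and knockout mice of the Ribo-seq libraries. Each library was a pool of oocytes, and nothing in the labels says which animals a replicate came from, so p-values measure the spread between these libraries, which may be technical.

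Mouse oocytes build the meiotic spindle without centrioles. After the germinal vesicle breaks down, many acentriolar microtubule-organizing centres (MTOCs) that carry pericentrin gather and cluster, while the Ran gradient around the chromosomes releases factors such as TPX2 that nucleate microtubules and activate Aurora A. Augmin branches new microtubules off old ones, TACC3 and chTOG (the product of *Ckap5*) stabilize and lengthen them, the kinesin KIF11 pushes the poles apart, and NUMA1 focuses the minus ends. Many maternal mRNAs are stored with short poly(A) tails and are translated at meiotic resumption when the CPEB1 protein, bound to cytoplasmic polyadenylation elements (CPEs) in the 3′ UTR, promotes tail lengthening.

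RPF counts per library ran from 4815 to 279464, and 3 libraries stood apart. WT MII replicate 2 had 4815 counts on 523 genes. Replicates 1 and 2 of the Nat10-ZcKO GV oocytes had 42360 and 51709 counts, of which 0.0212% and 1.62% fell on 12 oocyte marker genes, against 5.97% to 11.4% in the other 4 GV libraries, and 1.57% and 0.335% on 16 adipocyte marker genes, against 0.0195% to 0.0297%. The tests of the members are therefore given with all libraries and over the 8 others, 4 of GV (3 WT, 1 Nat10-ZcKO) and 4 of MII (1 WT, 3 Nat10-ZcKO). In those 8 the 10 genes took 0.247% to 0.289% of the counts at GV and 0.271% to 0.355% at MII, so the ranges of the stages overlapped. The 12 oocyte markers took 1.15% to 1.37% at MII. Granulosa and cumulus markers took 0.238% to 0.450% at GV and 0.211% to 0.563% at MII. In bulk libraries, fewer cells of a type and less RNA per cell cannot be told apart.

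The 3′ UTRs of the 10 genes are described first, and whether a CPE goes with a change at MII was not tested. A CPE was searched as TTTTAT or TTTTAAT on the transcript strand, in the protein-coding transcript with the longest CDS (GENCODE M21 annotation of GRCm38, the assembly also called mm10), a search added after the RPF values were known. In the last 100 bases, 4 members (*Aurka*, *Ckap5*, *Kif11* and *Pcnt*) held one, against 17.7% of 19410 genes. *Tpx2* held 2 in its UTR of 1630 bases, 702 and 828 bases before the end of that transcript, but the first of them lies within 100 bases of another annotated 3′ end of the gene. *Haus6* and *Cep192* held CPEs farther upstream, and *Tacc3*, *Haus8* and *Numa1* held none in UTRs of 154, 269 and 717 bases. Only 1 transcript per gene was searched, while *Tacc3* had 4 annotated 3′ ends and *Numa1* 2, so their other ends were not covered. The share of all genes also rests on 1 end per gene, and by that rule *Tpx2* held none in the last 100 bases. Among all genes 57.4% held at least 1 CPE anywhere in the UTR. The windows below, each of 30 bases in the 3′ UTR and read 5′ to 3′ on the strand of the gene, are those nearest to an annotated end. They come from *Tpx2*, *Ckap5* and *Pcnt*, the genes with the highest MII over GV ratios below, and from *Aurka*. With all 11 libraries only *Tpx2* of these passed the stage test below, with 8 libraries *Pcnt* passed too, and *Ckap5* and *Aurka* passed in neither. *Kif11*, with a CPE 11 bases before its end, is not shown. The windows were picked with the ratios known, so they cannot show whether a CPE goes with a rise. The capitals mark the CPE.
Tpx2, chr2:152894608-152894637, plus strand: gagatttcttgaTTTTATatatttggtttt
Ckap5, chr2:91620625-91620654, plus strand: aatttaagagacTTTTATaaataaagtttg
Pcnt, chr10:76351284-76351313, minus strand: tcagtttattctTTTTATtggcaaaacaaa
Aurka, chr2:172356237-172356266, minus strand: ttaaaggctattTTTTATgttggagttctg
A match is a description of these letters, not evidence of CPEB1 binding, which was not measured.

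In WT GV oocytes *Tacc3* had the most RPFs per CDS length of the 10 genes and *Kif11* none. In TPM (counts per CDS length, scaled to a sum of 1000000 per library) the mean levels over the 3 WT GV libraries were 502 ± 77.4 (SD, n = 3) for *Tacc3*, 242 ± 20.5 for *Haus8*, 183 ± 31.4 for *Aurka*, 104 ± 26.0 for *Ckap5*, 78.2 ± 6.91 for *Numa1*, 74.3 ± 13.9 for *Pcnt*, 49.2 ± 20.6 for *Tpx2*, 13.5 ± 8.13 for *Cep192* and 4.34 ± 5.05 for *Haus6*. The libraries of *Tacc3*, *Haus8*, *Aurka* and *Ckap5* did not overlap with those of the next gene in that order, apart from *Ckap5* (83.3 to 134 TPM) and *Numa1* (72.3 to 85.8 TPM). The levels of *Numa1*, *Pcnt* and *Tpx2* could not be ordered, because *Pcnt* (63.3 to 89.9 TPM) overlapped with both neighbours. In the Nat10-ZcKO GV libraries *Haus8* and *Tacc3* could not be ordered. *Haus8* had 57.9, 268 and 548 TPM and *Tacc3* 33.6, 255 and 523 in replicates 1 to 3, so their ranges overlapped. These values came from 2, 11 and 137 counts of *Haus8* and 2, 18 and 225 of *Tacc3*. In replicate 1 both lay under the 86.8 and 50.4 TPM that 3 counts would give. *Kif11* was again at 0 in these libraries. In the 3 Nat10-ZcKO MII libraries the order was not that of WT GV. *Tpx2* led with 355 ± 67.1 TPM (SD, n = 3), above *Ckap5* at 193 ± 16.3, *Aurka* at 165 ± 41.8, *Pcnt* at 120 ± 11.9 and *Numa1* at 116 ± 37.4. *Haus8* stood at 75.7 ± 30.9 TPM and *Tacc3* at 29.3 ± 26.1. The *Tpx2* libraries there (300.3 to 429.5 TPM) lay above every library of the other 9 genes, while *Ckap5* (177 to 209 TPM) and *Aurka* (125 to 208 TPM) overlapped.

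**Figure D1:**
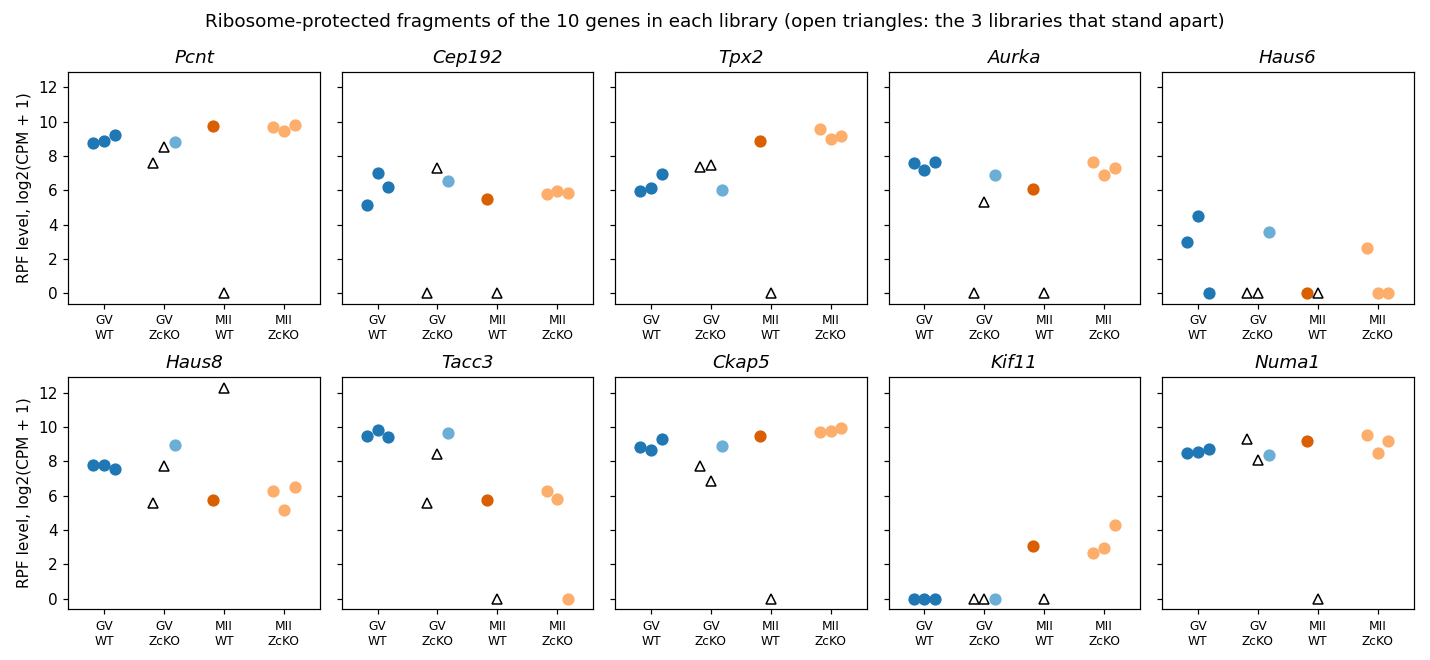
RPF level of each of the 10 genes as log2(CPM + 1), 1 point per library, in the 4 groups of oocytes. Open triangles are the 3 libraries that stand apart. *Tpx2*, *Ckap5* and *Pcnt* sit higher in the 4 filled MII points than in the 4 filled GV points, *Tacc3* and *Haus8* lower, and *Haus8* has its highest point in WT MII replicate 2.

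The first comparison asked which spindle genes gained or lost RPFs between the GV and the MII stage. With all 11 libraries and the genotype as a covariate, 1004 of 2991 genes tested passed an adjusted p of 0.05 in edgeR's quasi-likelihood test (33.6%), 12.6% higher and 20.9% lower at MII. Of the 10 members 8 had enough counts to be tested. *Tpx2* rose and *Tacc3* fell, and the other 6 did not pass. Over the 8 libraries, 64.4% of 3094 genes passed (30.4% higher, 33.9% lower), and of the 8 members tested *Tpx2* and *Pcnt* rose and *Tacc3* and *Haus8* fell. The median log2 fold change of all genes was -0.48 with 11 libraries and -0.14 with 8, and that of the members tested was 0.11 and 0.00.

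Among the MTOC scaffold genes, *Pcnt* passed the test, as a modest rise, over the 8 libraries only, and *Cep192* did not pass. *Pcnt* (ENSMUSG00000001151.10, chr10:76351263-76442786, minus strand) encodes pericentrin, the large coiled-coil protein that anchors γ-tubulin at the MTOCs. Its levels in CPM (counts scaled to 1000000 per library) were 433, 472 and 603 in WT GV and 189, 367 and 455 in Nat10-ZcKO GV, with 845 and 0 at MII for WT and 814, 702 and 902 for Nat10-ZcKO. Apart from the 0 in the shallow WT MII library, where a count of 0 allows up to 623 CPM, every MII library lay above every GV library. With all 11 libraries the log2 fold change was 0.65 (SE 0.95, adjusted p = 0.604), and over the 8 libraries it was 0.64 (SE 0.27, adjusted p = 0.0389, edgeR). On mean CPM the level over the 4 MII libraries was 816 ± 84.1, which was 1.66 times the 491 ± 76.7 over the 4 GV libraries (SD, n = 4 each). Such means over the 8 libraries, here and below, pool the genotypes without adjustment, while the test had the genotype as a covariate.

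*Cep192* (ENSMUSG00000024542.9, on chromosome 18) encodes a scaffold that recruits Aurora A and PLK1 to spindle poles. It had 115 counts in all, with 34.4, 129 and 72.8 CPM in WT GV and 0, 155 and 90.2 in Nat10-ZcKO GV, with 44.5 and 0 at MII for WT and 53.2, 61.3 and 56.4 for Nat10-ZcKO. The MII values lay inside the range of the GV values. Its log2 fold change was -0.85 (SE 0.68, adjusted p = 0.321) with 11 libraries and -0.96 (SE 0.52, adjusted p = 0.107) with 8.

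*Tpx2* showed the largest rise of the 10 genes. *Tpx2* (ENSMUSG00000027469.16, chr2:152847964-152895321, plus strand) encodes the Ran-regulated microtubule nucleator that binds and activates Aurora A. The RPF levels were 61.9, 68.0 and 125 CPM in WT GV and 165, 174 and 65.0 in Nat10-ZcKO GV, with 475 and 0 at MII for WT and 745, 498 and 582 for Nat10-ZcKO. All MII libraries other than WT replicate 2 were above all GV libraries, including the 2 Nat10-ZcKO GV libraries with adipocyte markers, which held 7 and 9 *Tpx2* counts. With all libraries the log2 fold change was 2.05 (SE 0.83, adjusted p = 0.0442), and over the 8 libraries 2.71 (SE 0.34, adjusted p = 3.7e-07). The mean of the 4 MII libraries, 575 ± 122 CPM, was 7.19 times the 79.9 ± 30.04 CPM of the 4 GV libraries.

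The call on *Tpx2* with all libraries was fragile. It was lost when any single GV library other than Nat10-ZcKO replicates 1 and 2 was left out, and when WT MII replicate 1 or any Nat10-ZcKO MII library was left out, with log2 fold changes of 1.81 to 2.12 and adjusted p from 0.0620 to 0.274 in those 8 fits. Without WT MII replicate 2 it was 2.64 (adjusted p = 4e-04).

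*Aurka* (ENSMUSG00000027496.15, chr2:172356190-172370535, minus strand) encodes Aurora A, the kinase that TPX2 activates. It did not pass the test. The levels were 192, 143 and 198 CPM in WT GV and 0, 38.7 and 119 in Nat10-ZcKO GV, with 66.7 and 0 at MII for WT and 202, 116 and 157 for Nat10-ZcKO, so the stages overlapped. Its log2 fold change was -0.01 (SE 0.82, adjusted p = 0.993) with 11 libraries and -0.53 (SE 0.42, adjusted p = 0.268) with 8. In Nat10-ZcKO GV replicate 1, where *Aurka* had no count, the limit that 3 counts set was 70.8 CPM.

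The other Aurora kinases had few RPFs. *Aurkb* had 12 counts over the 11 libraries. *Aurkc*, which oocytes use beside Aurora B at the chromosomes, had 0 to 2 counts in each GV library and 2 to 6 in each MII library other than WT replicate 2, and 18 in all, too few for the test.

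The augmin subunit *Haus8* fell at MII once the shallow library was set aside, and *Haus6* was barely covered. *Haus8* (ENSMUSG00000035439.13, chr8:71248561-71272934, minus strand) encodes the augmin subunit that binds microtubules. Its levels were 220, 222 and 187 CPM in WT GV and 47.2, 213 and 494 in Nat10-ZcKO GV, with 51.9 and 4984 at MII for WT and 74.5, 34.1 and 87.7 for Nat10-ZcKO. The highest value, 4984 CPM, came from 24 of 4815 counts, or 0.498% (95% exact interval 0.320% to 0.741%, counting error only), which put *Haus8* at rank 43 of the genes of that library (WT MII replicate 2), and no other member had a count there. In the other 10 libraries its share was at most 0.0494%.

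With that library in the fit the log2 fold change of *Haus8* was -0.71 (SE 0.81, adjusted p = 0.500), and leaving it out alone gave -1.95 (adjusted p = 0.0255). Over the 8 libraries the change was -2.83 (SE 0.38, adjusted p = 1.38e-06), and the 4 MII libraries, at 62.0 ± 23.8 CPM, lay below the 4 GV libraries at 281 ± 143 CPM, a 4.53-fold lower mean. What set the 24 counts apart was not tested.

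*Haus6* (ENSMUSG00000038047.18, chr4:86578855-86612055, minus strand) encodes the augmin subunit that recruits the γ-tubulin ring complex. It had 1, 6 and 0 counts in WT GV and 0, 0 and 3 in Nat10-ZcKO GV, with 0 and 0 at MII for WT and 1, 0 and 0 for Nat10-ZcKO. A difference between the stages was not detectable at this depth. The other augmin subunits also held few counts, apart from *Haus5* with 202 and *Haus4* with 139, and both fell over the 8 libraries, with log2 fold changes of -2.97 (SE 0.43) and -1.33 (SE 0.42).

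*Tacc3* showed the largest fall, while its partner *Ckap5* was higher at MII in CPM but did not pass the test. *Tacc3* (ENSMUSG00000037313.16, chr5:33658128-33678995, plus strand) encodes a coiled-coil protein that, once phosphorylated by Aurora A, bridges microtubules with clathrin and chTOG. RPF levels were 701, 884 and 666 CPM in WT GV and 47.2, 348 and 812 in Nat10-ZcKO GV, with 51.9 and 0 at MII for WT and 74.5, 54.5 and 0 for Nat10-ZcKO. The 4 GV libraries that did not stand apart all lay at 666 CPM or more. The 4 MII libraries of usual depth lay at 74.5 CPM or less (the 0 of WT replicate 2 allows up to 623). Of the GV libraries that stood apart, Nat10-ZcKO replicate 2 lay between, at 348 CPM, and replicate 1 (2 counts) inside the MII range. The log2 fold change was -3.81 (SE 0.99, adjusted p = 0.00201) with 11 libraries and -4.31 (SE 0.43, adjusted p = 1.86e-08) with 8. On mean CPM the level at MII, 45.2 ± 31.8, was 16.9-fold lower than the 766 ± 100.4 at GV (SD, n = 4 each).

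Of the paralogs of *Tacc3*, *Tacc2* did not pass the test and *Tacc1* could not be tested. *Tacc2* had 534 to 1016 CPM in the 4 GV libraries and 743 to 952 CPM in the 4 MII libraries, and a log2 fold change of 0.12 (SE 0.27, adjusted p = 0.7003) over the 8. *Tacc1* had 54 counts in all, too few to be tested between the stages.

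*Ckap5* (ENSMUSG00000040549.16, chr2:91526762-91620664, plus strand), which encodes the microtubule polymerase chTOG, had the most RPF counts of the 10 genes, 924 in all. Its levels were 461, 394 and 624 CPM in WT GV and 212, 116 and 480 in Nat10-ZcKO GV, with 697 and 0 at MII for WT and 835, 879 and 996 for Nat10-ZcKO. Apart from WT replicate 2 the MII libraries all lay above the GV libraries. The mean of the 4 MII libraries, 852 ± 123 CPM, was 1.74 times that of the 4 GV libraries, 490 ± 97.0 CPM, but the test gave a log2 fold change of 0.57 (SE 0.27, adjusted p = 0.0729) over the 8 and 0.82 (SE 0.98, adjusted p = 0.523) over all 11. With scaling by library size only in place of TMM, a setting added after the data were seen, the change over the 8 libraries was 0.72 and passed (adjusted p = 0.0489).

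The pole gene *Numa1* did not pass the test, and the kinesin *Kif11* was at the limit of detection. *Numa1* (ENSMUSG00000066306.13, chr7:101934111-102014964, plus strand) encodes the protein that holds microtubule minus ends together at the poles with dynein. It stood at 357, 376 and 416 CPM in WT GV and 614, 271 and 325 in Nat10-ZcKO GV, with 578 and 0 at MII for WT and 745, 361 and 582 for Nat10-ZcKO. The stages overlapped through Nat10-ZcKO MII replicate 2. Its log2 fold change was 0.23 (SE 0.88, adjusted p = 0.849) with 11 libraries and 0.53 (SE 0.29, adjusted p = 0.108) with 8.

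*Kif11* (ENSMUSG00000012443.4, chr19:37376403-37421859, plus strand), the plus-end directed motor also called Eg5, had 0 counts in all 6 GV libraries, with 1 and 0 at MII for WT and 1, 1 and 3 for Nat10-ZcKO. A GV library with 0 counts allows between 10.7 and 70.8 CPM, and the MII values were 5.32 to 18.8 CPM where a count was seen, so no fold can be given.

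In CPM, 5 of the 9 members with at least 10 counts over the 8 libraries did not overlap between the 4 GV and the 4 MII libraries, 3 higher (*Tpx2*, *Ckap5* and *Pcnt*) and 2 lower (*Tacc3* and *Haus8*). Of all 8094 genes with that minimum 32.3% did not overlap, 14.8% higher and 17.5% lower. *Kif11*, with 6 counts, was below it, and what its GV libraries allow overlaps with its MII values.

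**Figure D2:**
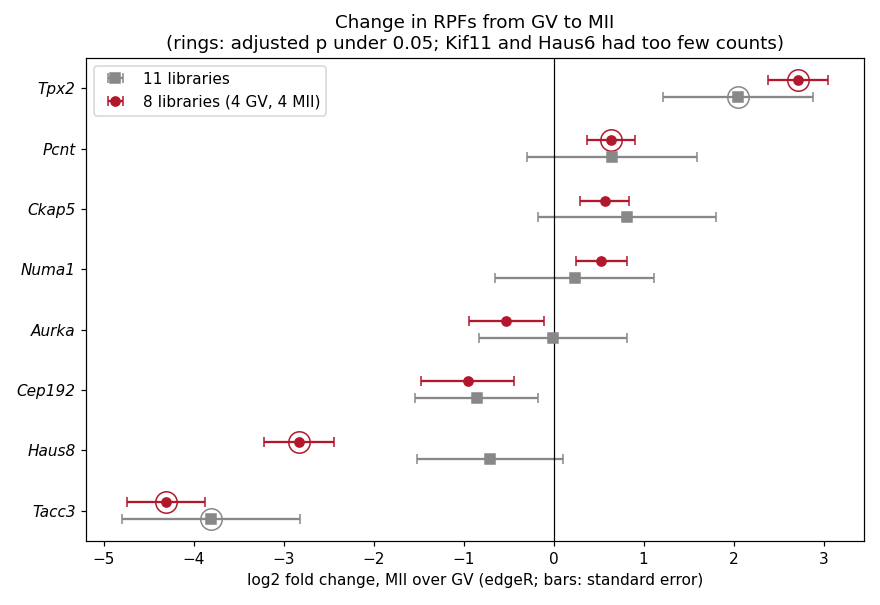
Log2 fold change of RPFs from GV to MII for the 8 genes tested, with all 11 libraries (grey squares) and with 8 (red circles), bars being the standard error and rings an adjusted p under 0.05 in edgeR. *Tpx2* and *Tacc3* are ringed in both, at 2.05 and -3.81 and at 2.71 and -4.31, and *Pcnt* and *Haus8* only with 8 libraries.

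Beside the 10 genes, 70 other spindle genes were listed by role. With all libraries 37 of them were tested, of which 4 rose and 5 fell. *Prc1*, the bundler of antiparallel microtubules, rose by a log2 fold change of 3.21 (SE 0.99), the kinesin-8 *Kif18a* by 2.77 (SE 0.87), the minus-end kinesin *Kifc1* by 2.50 (SE 0.72) and *Slain2*, a partner of chTOG, by 1.96 (SE 0.78). *Gtse1*, which binds clathrin and restrains the depolymerase MCAK, fell by 2.84 (SE 0.75), *Myo10* fell by 2.62 (SE 0.99), the augmin subunit *Haus5* fell by 2.17 (SE 0.72), *Nusap1* fell by 1.81 (SE 0.73) and the MTOC scaffold *Cdk5rap2* fell by 1.78 (SE 0.73).

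Over the 8 libraries 37 were tested again, a partly different set (2 in place of 1 of the γ-tubulin complex, 5 in place of 6 of the Ran pathway), and of these 9 rose and 14 fell, against 30.4% and 33.9% of all genes. By role, both augmin genes tested fell (*Haus4* and *Haus5*), as did 3 of 4 MTOC genes (*Plk1*, *Cdk5rap2* and *Akap9*) and 1 of 2 genes of the γ-tubulin complex (*Tubg2*, -2.13, SE 0.36), and none of these 8 rose. Of 8 microtubule-binding proteins 4 rose and 1 fell, of 6 kinesins 3 rose and 1 fell, and of 6 genes of the TACC and clathrin group 1 rose and 3 fell. Of 3 dynein genes 2 fell, and of 5 genes of the Ran pathway 1 rose (*Rcc1*) and 1 fell (*Ranbp2*). Neighbours in role moved the same way in some groups, as *Haus8* with *Haus4* and *Haus5*, and the other way in others, as *Pcnt* with *Cdk5rap2* and *Akap9*. The lists were written with earlier results of these data known, and the median log2 fold change of the 37 tested over the 8 libraries was -0.63 against -0.14 for all genes.

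**Figure D3:**
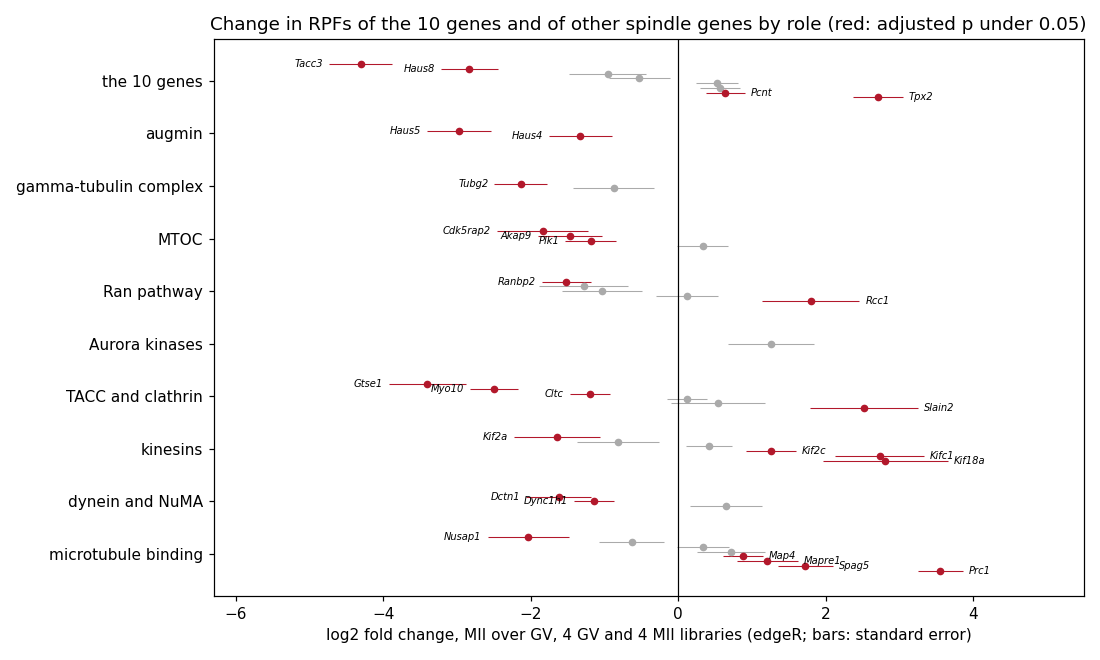
Log2 fold change of RPFs from GV to MII over 4 GV and 4 MII libraries for the 8 members tested and 37 other spindle genes, grouped by role, with standard errors as bars. Red points passed an adjusted p of 0.05 in edgeR. Among the other spindle genes, those of the augmin, γ-tubulin and MTOC groups in red lie left of 0, and *Prc1*, *Kif18a*, *Kifc1* and *Slain2* lie to the right with *Tpx2*.

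Within WT, 21.5% of 2045 genes passed between GV and MII (9.98% higher and 11.5% lower), and of 7 members tested *Tpx2* alone passed, with a log2 fold change of 2.53 (SE 0.72, adjusted p = 0.0078, edgeR). That call was lost without GV replicate 1 (2.37, adjusted p = 0.165) or GV replicate 2 (1.91, adjusted p = 0.847) and with DESeq2 (1.35, adjusted p = 0.137), *Tpx2* fell under the count filter without GV replicate 3, and with the shallow library as the only WT MII library the sign turned (-6.52, adjusted p = 0.0361). *Tacc3* had -3.67 (SE 1.52, adjusted p = 0.0627). *Haus8* came out at 2.58 (SE 1.11, adjusted p = 0.0732), and at -1.94 (SE 0.50, adjusted p = 0.0051) without WT MII replicate 2, which left 1 WT MII library that is assumed to vary like the GV libraries. In that fit 44.9% of 3264 genes passed (20.9% higher and 24% lower), and 5 of 8 members, *Tpx2* (2.64) and *Pcnt* (0.85) upward and *Tacc3* (-3.77), *Haus8* and *Aurka* (-1.30) downward.

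Within Nat10-ZcKO, 16.2% of 2225 genes passed (10.2% higher and 6.02% lower), and of 7 members tested *Tpx2* rose by 2.15 (SE 0.67, adjusted p = 0.0453) and *Tacc3* fell by 3.75 (SE 1.17, adjusted p = 0.0457). Both calls were lost when any 1 MII library was left out, with log2 fold changes of 2.42 to 2.64 and adjusted p of 0.0985 to 0.166 for *Tpx2* and -4.03 to -2.93 and 0.154 to 0.233 for *Tacc3*. Both were also lost without GV replicate 2 (adjusted p = 0.0551 and 0.0656), and that of *Tacc3* without GV replicate 3 (-1.98, adjusted p = 0.135). *Haus8* had -2.40 (SE 0.91, adjusted p = 0.0823). Without GV replicates 1 and 2, which leaves 1 GV library that is assumed to vary like the MII libraries, 38.6% of 3741 genes passed (19% higher and 19.6% lower), and *Tpx2* had 2.91, *Tacc3* -4.55 and *Haus8* -3.19, all 3 past the threshold. In that fit the log2 fold change of *Aurka* was 0.10 (SE 0.59, adjusted p = 0.905), against -1.30 in WT. Whether the maturation change differed between the genotypes was tested as an interaction. No member passed (35 of 3863 genes did, 0.906%), and the largest difference among them was that of *Aurka*, 3.37 (SE 1.56, adjusted p = 0.792), which was 1.41 (SE 0.81, adjusted p = 0.800) over the 8 libraries, where 0 of 4029 genes passed (158 higher and 105 lower at an unadjusted p of 0.05). The 3 other spindle genes with the most counts, *Tacc2*, *Prc1* and *Map4*, did not pass either, with adjusted p from 0.806 to 0.862.

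The next comparison asked what the loss of *Nat10* did to these genes at each stage. The RPF counts of *Nat10* itself were 8, 11 and 3 in WT GV and 4, 1 and 5 in Nat10-ZcKO GV, with 1 and 5 at MII for WT and 6, 3 and 2 for Nat10-ZcKO. These few counts, taken over the whole CDS and not over the floxed exons, do not separate the genotypes and check no label. In the shallow WT MII replicate 2 the 5 counts made 1038 CPM, against at most 94.4 CPM in any other library.

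No member passed the test between Nat10-ZcKO and WT GV oocytes with all libraries. None of 1765 genes passed in edgeR (0%), with 60 higher and 25 lower at an unadjusted p of 0.05, and DESeq2 called 3 genes, none of them a member. The log2 fold changes of the 8 members tested ran from -1.22 (*Aurka*, SE 0.73) to 0.68 (*Tpx2*, SE 0.59), all with adjusted p of 0.900 or above. Here the Nat10-ZcKO libraries with few oocyte marker counts also had few counts of *Tacc3* (2 and 18), *Aurka* (0 and 2) and *Ckap5* (9 and 6), against 225, 33 and 133 in replicate 3, and the part of their makeup in these differences was not tested. The other spindle genes with the most counts at GV, *Myo10*, *Tacc2* and *Cltc*, had log2 fold changes of -0.60, -1.52 and -0.43 and did not pass.

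With Nat10-ZcKO GV replicate 3 as the only knockout library, *Haus8* was the 1 member that passed. Its 137 counts, 494 CPM, compared with 187 to 222 CPM in the 3 WT libraries, a log2 fold change of 1.41 (SE 0.33, adjusted p = 0.00930), where 2.01% of 3879 genes passed (0.98% higher and 1.03% lower). *Haus5*, another augmin subunit, had 1.43 (SE 0.36) in that fit. *Haus4* was not higher, at 119 CPM against 124 to 135 CPM in WT. The median log2 fold change of the 3 other augmin genes tested, *Haus5* included, was 0.096. These values rest on 1 knockout library, and the spread in the test came from the 3 WT libraries alone, like which the knockout library is assumed to vary. The other 7 members had log2 fold changes of -0.35 (*Aurka*, SE 0.41) to 0.30 (*Tacc3*, SE 0.29).

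At MII no member passed between the genotypes either. Of 2097 genes 4 passed (0.191%), all lower, and of the 6 members tested *Haus8* had the largest value, -3.84 (SE 1.16, adjusted p = 0.236), which was 0.27 (SE 0.95, adjusted p = 0.999) without WT MII replicate 2. The other 5 ran from 0.52 (*Numa1*, SE 1.42) to 1.28 (*Aurka*, SE 1.04). Without that library 7 members were tested against 1 WT library, assumed to vary like the knockout libraries, 0.205% of 2924 genes passed and no member did, with log2 fold changes from -0.41 (*Tacc3*, SE 1.31) to 1.15 (*Aurka*, SE 0.70). *Tpx2*, at 0.27 (SE 0.49), and *Ckap5*, at 0.31 (SE 0.49), are 2 of these 7. *Prc1*, *Map4* and *Tacc2*, the other spindle genes with the most counts at MII, had adjusted p of 0.997.

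**Figure D4:**
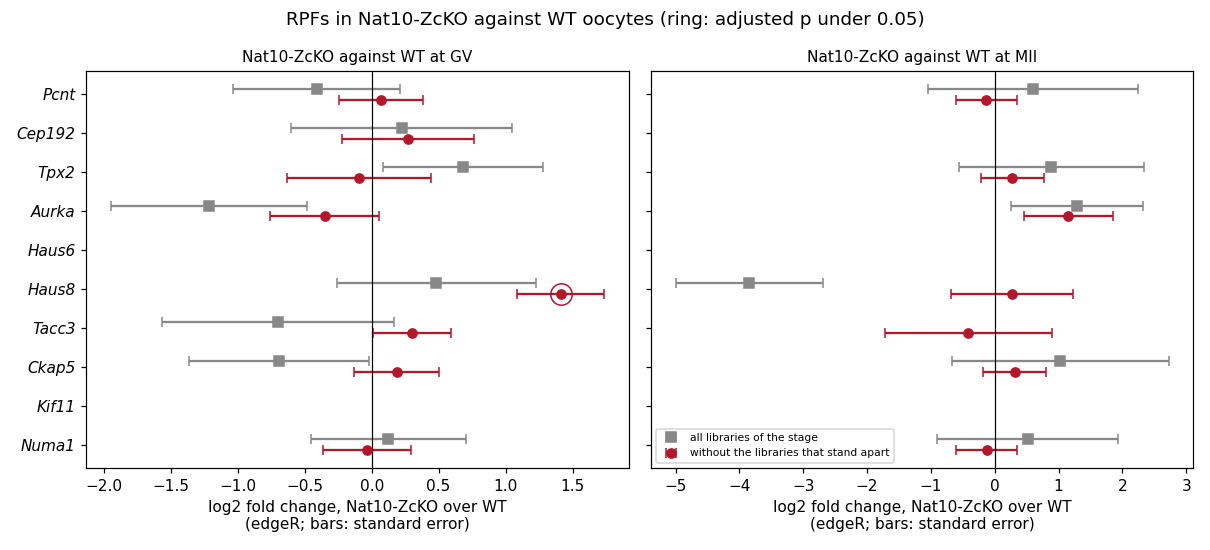
Log2 fold change of RPFs in Nat10-ZcKO over WT oocytes for the members tested, at GV (left) and MII (right), with all libraries of the stage (grey squares) and without those that stand apart (red circles), bars being standard errors. The 1 ring, an adjusted p under 0.05 in edgeR, marks *Haus8* at GV, 1.41, with 1 knockout library, and the grey *Haus8* point at MII, -3.84, moves to 0.27.

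Across the 8 libraries *Tpx2*, *Ckap5* and *Pcnt*, all higher at MII, went together and opposite to *Tacc3* and *Haus8*, both lower at MII. The stage difference already sets these directions, and *Aurka* and *Cep192* fell on neither side. The likeness was Pearson's r of log2(CPM + 1) over 8 libraries that share a stage difference and differ in depth, so it is a description. *Tpx2* and *Pcnt* had r = 0.962, *Tpx2* and *Ckap5* 0.933 and *Ckap5* and *Pcnt* 0.911. *Tacc3* was opposite to all 3, at -0.799 with *Tpx2*, -0.85 with *Ckap5* and -0.84 with *Pcnt*, and so was *Haus8*, at -0.878, -0.784 and -0.808. *Tacc3* and *Haus8* had 0.629 with each other. *Numa1* had 0.829 with *Pcnt*, 0.79 with *Tpx2* and 0.646 with *Ckap5*. *Aurka* was close to 0 with *Ckap5* (-0.0603) and *Numa1* (0.0242), and *Cep192* ran from -0.4 with *Ckap5* to 0.425 with *Haus8*. Among 2196 genes with at least 100 counts the 5 most like *Ckap5* were *Kmt2d* (0.966), *Ciapin1* (0.964), *Adcy2* (0.962), *Adpgk* (0.959) and *Med31* (0.957), and *Tpx2* ranked 31 and *Pcnt* 80.

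acRIP-seq asked which mRNAs of WT GV oocytes are pulled down by an antibody against ac4C. The anti-ac4C library held 970997 counts and the anti-IgG library 116232, so levels were compared as CPM, and with 1 library each there is no test, only counting intervals. A ratio above 2 was reached by 53.3% of 11883 genes and by 5 of the 10 members, and a ratio whose lower 95% bound was above 2 by 3.69% and by 2 members. Among the 4680 genes with at least 50 counts these shares were 32.8% and 9.38%. Genes with 0 anti-IgG counts count as above 2 in this rule.

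The 2 MTOC members counted as above 2 by this rule, as did 53.3% of all genes. Other MTOC genes went both ways. *Cdk5rap2* was above 2 (5.45), while *Pcm1* (1.68), *Plk1* (0.708) and *Cep152* (0.379) were not, and *Akap9* and *Plk4* had 0 anti-IgG counts. *Pcnt* had 1193 counts with anti-ac4C and 59 with anti-IgG, a CPM ratio of 2.42 (95% interval 1.86 to 3.20), and *Cep192* had 70 and 0 counts, a ratio with a lower 95% bound of 2.21. *Haus6*, with 86 and 0 counts, had a lower bound of 2.73, while *Haus8*, with 152 and 65 counts, was the 1 member depleted, at a ratio of 0.280 (0.208 to 0.380). The 2 augmin subunits thus lay on opposite sides of 1, and their intervals did not meet.

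*Tpx2* had 278 and 25 counts and a ratio of 1.33 (0.883 to 2.09), and *Aurka* 198 and 11 counts and 2.15 (1.18 to 4.39), so the interval of *Tpx2* held 1 and that of *Aurka* held 2. *Tacc3*, with the most counts of the 10, 1776 and 160, had 1.33 (1.13 to 1.57), under 2 at the upper bound, and *Ckap5*, with 144 and 20, had 0.862 (0.538 to 1.45). *Numa1* (215 and 20 counts) had 1.29 (0.813 to 2.15). *Kif11*, with 20 and 0 counts, was above 2 only by its 0, its lower bound being 0.591. *Nat10* had 119 and 5 counts, a ratio of 2.85 (1.19 to 8.93).

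Of the genes whose RPFs fell at MII over the 8 libraries *Haus8* was below a ratio of 1 and *Tacc3* above it, and of those that rose *Pcnt* was above 1 and the interval of *Tpx2* held it. Of the 68 other spindle genes with a count 29 had a ratio above 2 and 8 a lower bound above 2. The ratios depend on how the libraries are scaled, since the anti-ac4C library was 8.35 times as deep and the anti-IgG library had more of its fragments on no feature, 46.7% against 17.1%.

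**Figure D5:**
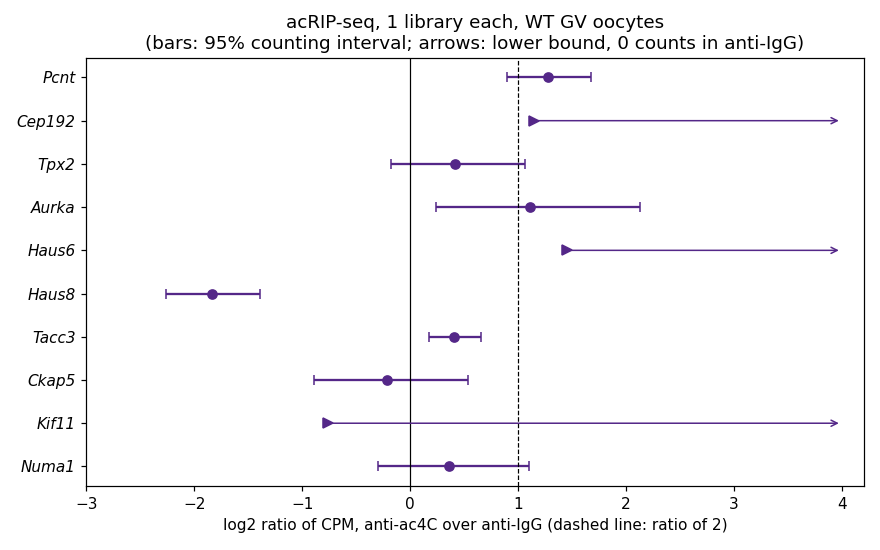
Log2 ratio of CPM in the anti-ac4C over the anti-IgG library of WT GV oocytes for the 10 genes. Points have 95% counting intervals, triangles with arrows are lower bounds where the anti-IgG library had 0 counts, and the dashed line is a ratio of 2. *Cep192* and *Haus6* lie beyond the dashed line at their lower bounds of 2.21 and 2.73, *Pcnt* crosses it, and *Haus8* lies below 0 at a ratio of 0.280.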

How the data were processed

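For Ribo-seq and acRIP-seq the authors deposited counts per gene, whole numbers without normalization, 1 table per library and not pooled, on the CDS for Ribo-seq and on genes for acRIP-seq. Per the labels, cutadapt, STAR, HTSeq and mm10 were used, without versions. rRNA removal, duplicates and strand settings are not given in the sources used here, so fragments of paralogs or overlapping genes may be split or lost. Rows naming no gene were left out of library sizes (reads on no feature made up 46.7% with anti-IgG and 17.1% with anti-ac4C). Of 22442 identifiers 22399 matched GENCODE M21, and TPM used the union CDS length.

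Members, gene lists and tests were chosen with earlier results of these data known. Named are the 10 genes, *Nat10*, the paralogs *Aurkb*, *Aurkc*, *Tacc1* and *Tacc2*, other spindle genes past the threshold (at most 10 per comparison by size, or else the 3 with the most counts) and the 5 genes most like *Ckap5*. Spindle genes named beyond that, such as those counted by role, were named after their values were seen. The granulosa, oocyte and adipocyte lists described the makeup of the libraries and check no stage or genotype label.

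Tests used edgeR 4.0.16 in R 4.3.3 (filterByExpr, TMM, glmQLFit, glmQLFTest, Benjamini-Hochberg over all genes tested, adjusted p under 0.05). The standard error is the log2 fold change over the square root of F. Alternatives were DESeq2 1.42.0, library size scaling, other count filters, each library left out, the 3 libraries that stand apart left out, the replicate number as a block, and all 11 libraries in 1 fit. acRIP bounds are exact binomial (Clopper-Pearson) at 95%. Intervals, and limits of 3 counts for a 0, cover counting error only, since PCR reads without molecular identifiers are not independent. Python 3.11.15, numpy 2.4.6, pandas 2.3.3, scipy 1.17.1 and matplotlib 3.10.9 were used. The edgeR fits and the acRIP bounds were also run on simulated data. Recovery by the fits was required only at a dispersion lower than that of these libraries, so it does not give their power here.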

Additional observations from a re-analysis of the deposited data

How the results depend on the processing

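Settings other than those of the report were tried for every comparison. Of 403 refits of the members' log2 fold changes given in the text 295 kept their direction and their side of the threshold, 35 lost the call, 38 gained it and 35 changed sign. The rise of *Tpx2* from GV to MII in both genotypes kept its direction in all 18 refits (1.78 to 2.87) and passed in 7, and the fall of *Tacc3* kept it in all 18 (-4.31 to -3.23) and passed in 16. *Pcnt* kept its direction in all 18 (0.19 to 1.24) and passed in 2. *Haus8* changed sign in 2 of 18 (-2.83 to 0.51) and passed in 3.

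The number of members called between GV and MII in both genotypes, 2, was 0 with any gene of at least 1 count in a library kept, 1 with at least 10 counts over the libraries, 4 without the 3 libraries that stand apart, 5 when these were also scaled by library size only (added after the data were seen), and 1 to 3 with single libraries left out. In WT it was 1, and 2 with DESeq2, 3 with library size only, 0 under both count filters and with all 11 libraries in 1 fit, 5 without the libraries that stand apart under either scaling, and 0 to 8 with single libraries left out. In Nat10-ZcKO it was 2, and 1 under both count filters, 0 with all 11 libraries in 1 fit and 0 to 3 with single libraries left out. Between the genotypes it was 0, and at GV it was 1 without the libraries that stand apart under either scaling and 0 to 1 with single libraries left out. At MII it was 1 with library size only and 0 to 6 with single libraries left out, and for the interaction 0 to 5. The highest of these came without WT MII replicate 1, which leaves only the library of 4815 counts for WT MII. Calls over all genes ran from 264 to 1991 (1004 in the report) between the stages, 0 to 1902 (439) in WT, 0 to 1445 (360) in Nat10-ZcKO, 0 to 385 (0) between genotypes at GV, 0 to 1451 (4) at MII and 0 to 948 (35) for the interaction.

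Sign changes between the stages in both genotypes were those of *Aurka* (0.33 with library size only, 0.088 with at least 10 counts, -0.42 to 0.55 with single libraries left out), *Numa1* (-0.15 with DESeq2) and *Haus8* (0.51 with library size only, -1.95 to 0.095 with single libraries left out). In WT *Haus8* was -1.94 without the libraries that stand apart, -2.01 with library size only as well, and -1.94 to 3.10 with single libraries left out, *Pcnt* was -0.59 with DESeq2, -0.23 and -0.11 under the filters of 1 and 10 counts, -0.13 with all 11 libraries in 1 fit and -9.14 to 0.85 with single libraries left out, and *Tpx2* was -6.52 to 2.64 in the latter. Between the genotypes at GV, without the libraries that stand apart, *Tpx2* was -0.10 and *Tacc3* 0.30 (-0.30 and 0.11 with library size only), and *Haus8* was -0.78 to 0.95 with single libraries left out. At MII without them *Haus8* was 0.27 and *Numa1* -0.12 (0.34 and -0.035 with library size only), and single libraries left out gave -4.70 to 0.27 and -0.12 to 9.22. The cause of these changes was not tested.

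With the replicate number as a block, no member was called in any stage comparison (0 in both genotypes, 0 in WT and 0 in Nat10-ZcKO), *Aurka* was 0.25 in both genotypes, *Haus8* -0.42 and *Pcnt* -2.33 in WT, and *Haus8* -0.19 between the genotypes at GV. The numbers do not mark shared animals in the labels. Deviations of same-numbered libraries correlated at -0.00258 to 0.0734 at GV and at 0.0186 and 0.142 at MII. Between the stages they correlated at -0.029 and 0.0145 in WT and at -0.00847 to 0.0863 in Nat10-ZcKO. Not every library correlated best with its own number. The 2 WT MII libraries deviate from their mean by equal and opposite amounts, and 1 of them held 4815 counts. Values that involve them cannot show whether the numbers mark pairs.

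For acRIP-seq, raw counts without scaling put 10 members above a ratio of 2, in place of 5. *Tpx2* ranked 2 among the members in WT MII by TPM, 5 by CPM and 1 without replicate 2, and in Nat10-ZcKO MII 1 by TPM and 3 by CPM. Depth limits *Kif11* and *Haus6*, with 6 and 11 RPF counts over all libraries, and everything that rests on WT MII, where 1 library of usual depth exists.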
